A study of Mus musculus with 8 samples.

Results

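The genes described are the Wnt pathway genes, 56 named genes of the secreted Wnt ligands, their receptors, their inhibitors and the signalling chain down to the TCF and LEF transcription factors. They were chosen by name, through the RefSeq accession of the array probes, and all 56 were found among the 20641 named genes of the array. Expression was measured on 1-colour arrays in primary spheres, free-floating balls of cells grown from dissociated ganglia. The RA (-) group held 4 arrays of spheres grown for 8 days without retinoic acid, and the RA (+) group held 4 arrays of spheres grown for 8 days with it. The source tissue was the superior mesenteric ganglion, taken at 3 weeks of age from mice of the 129+Ter/SvJcl background. The mice were hemizygous for TH-MYCN, so both groups carried the transgene. TH-MYCN expresses human MYCN from a tyrosine hydroxylase promoter, in sympathetic and related cells, and such mice develop neuroblastoma. Cells of 1 ganglion were divided between the media, so that arrays of the same number, 1 to 4, form a pair from 1 animal. The comparison is RA (-) against RA (+), which addresses what leaving out retinoic acid changes in spheres of these neuroblasts.

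Wnt ligands are secreted lipid-modified proteins that bind Frizzled receptors together with the coreceptors Lrp5 and Lrp6. Without a ligand, beta-catenin is marked for destruction by a complex of Axin, Apc and Gsk3b. With it, beta-catenin accumulates and acts with TCF and LEF factors on target genes, among which are feedback inhibitors such as Axin2 and Nkd1. Other Wnt ligands act through Ror receptors without beta-catenin, and in sympathetic neurons Wnt5a is known to promote the growth and branching of axons.

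Without retinoic acid, the secreted Wnt inhibitors Dkk1 and Sfrp5 were lower, as was Dkk3, a divergent relative of Dkk1. The ligand Wnt9a, the receptors Ror1 and Ror2, and Lgr4, a receptor of R-spondins, were lower too. Wnt6, Wnt5b, Rspo2, Fzd5 and the feedback inhibitors Nkd1 and Axin2 were higher. Each spot carries a flag that says whether it was well above background, written below as above background. This flag was set on 4 or more of the 8 arrays for 34 of the 56 genes, and these were tested. At an adjusted p under 0.05, 22 were called, 12 higher and 10 lower in RA (-) spheres. That share, 64.7% of the tested members, lies beside 64.3% of all 13539 tested genes, of which 35.9% were called higher and 28.4% lower, so the number of calls is close to the background of these arrays. The median log2 change of the tested members was 0.11, beside 0.07 over all tested genes. The groups did not overlap for 20 of the 34, against 53.1% of all tested genes. Among called members, 5 were higher and 8 lower by 1 log2 unit or more, while 7.50% and 10.7% of all tested genes passed these limits. Wnt9a and Ror1, among these 8 and the 20 without overlap, passed the filter through the RA (+) arrays alone. Dkk1, Sfrp5, Lgr4 and Wnt3, also among these 8, passed it mainly through the RA (+) arrays. Both ways of passing favour a lower call.

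**Figure D1:**
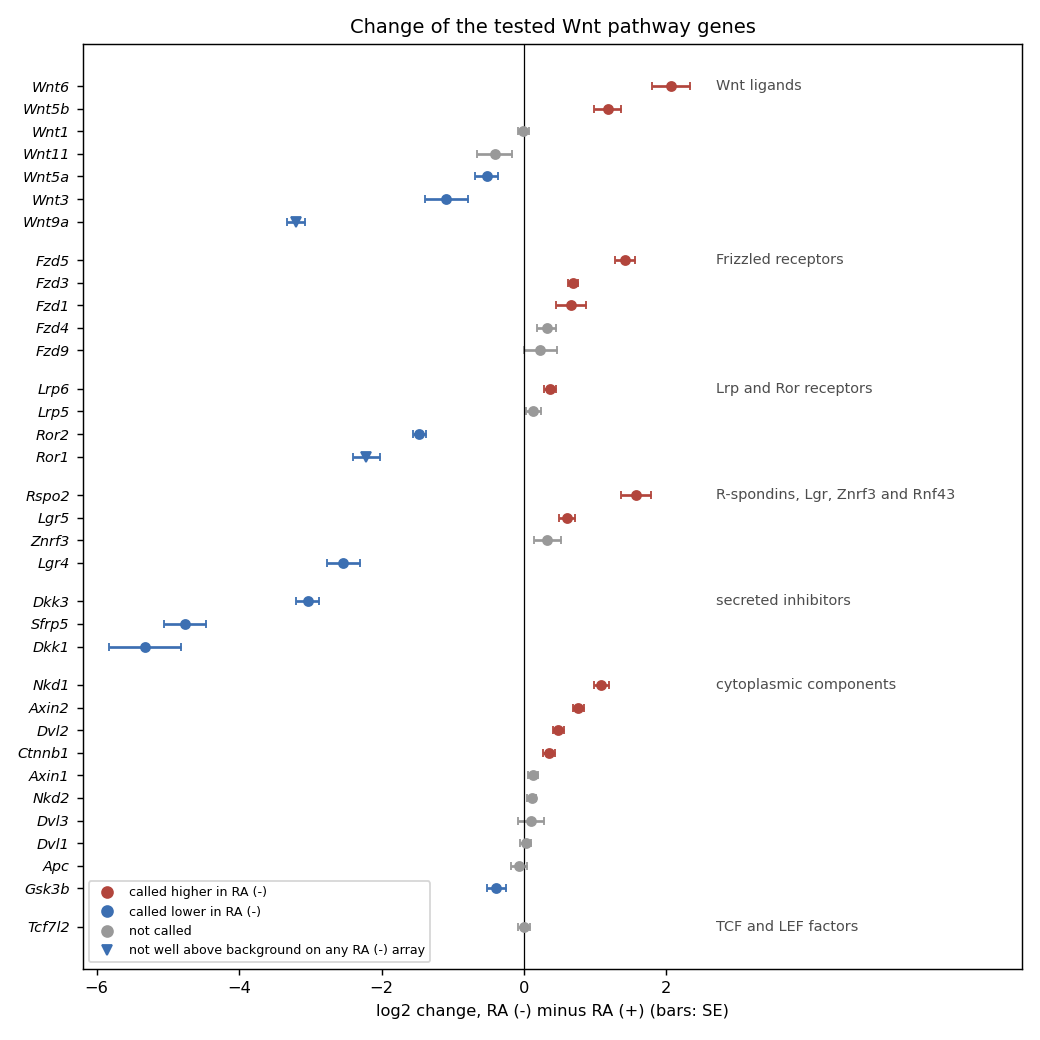
Log2 change, RA (-) minus RA (+), with its SE, for the 34 tested genes by role, from a fit with the animal as a block (4 animals). Red marks genes called higher, blue genes called lower and grey genes that were not called. The 3 tested genes listed as secreted inhibitors, Dkk3 among them, lie farthest to the left with Wnt9a. Triangles mark Wnt9a and Ror1, which were not above background on any RA (-) array.

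Levels below are log2 intensities relative to the 75th percentile of the same array, so that 0 is the level of that percentile. They compare 1 gene between arrays, and not genes with each other. The number of arrays limits their precision. RA (-) array 1 stood apart on the first principal component, which held 81.7% of the variance, at −42.3 while the other RA (-) arrays lay at −66.2 to −59.5 and the RA (+) arrays at 52.3 to 61.2. Values without animal 1 are therefore given for Dkk1, Lgr4 and Nfatc1, whose RA (-) array of animal 1 lay above the other 3. All 10 listed sympathoadrenal markers, Th and Dbh among them, were above background on all 8 arrays. Detection alone does not fix the origin of the cells, since Itgam and Kdr, markers of other cells, were also above background on all 8. The levels of the 10 markers were not all alike between the media: 3 were called higher and 4 lower in RA (-) spheres. That is 70.0% of them, close to the 64.3% of all tested genes. Th had a log2 change of 3.59, and Dbh of −1.54. The part of these differences in the results below was not tested. These are bulk samples, in which fewer cells of a type and less RNA per cell cannot be told apart.

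**Figure D2:**
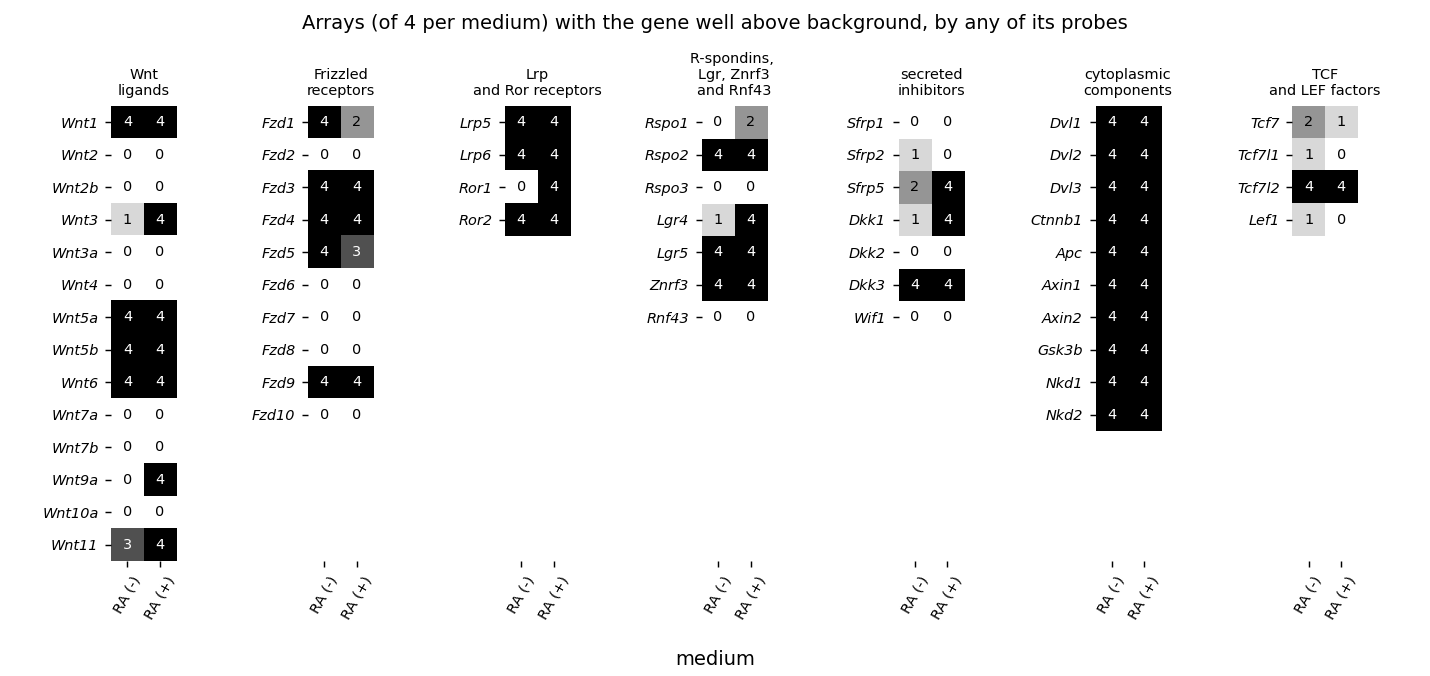
Number of arrays, of 4 in each medium, on which each of the 56 genes was well above background by any of its probes, with RA (-) on the left and RA (+) on the right of each panel. All 10 cytoplasmic components are at 4 in both media, while 7 of the 14 ligands and 5 of the 10 Frizzled receptors are at 0 in both.

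Of the 14 ligands, 7 could be tested, and their changes went both ways, with 2 called higher and 3 lower. That is 71.4% called, beside 64.3% of all tested genes. Wnt6, a ligand found in epithelia and ectoderm (NM_009526), lay at −1.43, −1.13, −1.61 and −0.88 in RA (-) spheres of animals 1 to 4, against −2.78, −3.52, −3.23 and −3.76 in RA (+) spheres. Every RA (-) array was above every RA (+) array, and the change of 2.06 (SE 0.26, adjusted p = 0.00119) is 4.17-fold. Wnt5b, which signals largely without beta-catenin, had levels of −1.92, −1.97, −2.19 and −2.20 in RA (-) spheres, and of −3.43, −3.35, −2.66 and −3.53 in RA (+) spheres. It was higher in all 4 animals, least so in animal 3, with a change of 1.17 (SE 0.18, adjusted p = 0.00262).

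Wnt9a (NM_139298) moved the other way. It was above background on all 4 RA (+) arrays, and on none of the RA (-) arrays. Its measured values were −5.63, −5.73, −5.55 and −5.07 in RA (-) spheres, against −2.46, −2.17, −2.29 and −2.24 in RA (+) spheres. Wnt9a was therefore at least 3.98-fold lower without retinoic acid. Such a bound sets the mean of the RA (+) arrays against, for each RA (-) array, the higher of the probe's own value and the dimmest signal above background. The adjusted p of 5.26e-05 belongs to the measured values (log2 change −3.21) and not to the bound. Wnt9a passed the filter through the RA (+) arrays alone, which favours a lower call. Wnt3, a ligand that activates beta-catenin, was above background on 1 of 4 RA (-) and on all 4 RA (+) arrays. Wnt3 therefore passed the filter mainly through the RA (+) arrays, which favours a lower call. Its values were −4.30, −5.76, −4.22 and −4.54 in RA (-) spheres, against −3.58, −3.45, −3.68 and −3.73 in RA (+) spheres. The groups did not overlap, and the change of −1.09 (SE 0.30, adjusted p = 0.0218) has no exact size, since most RA (-) values lay near background; it was −0.69 without animal 2, and the call was lost with no filter on dim probes (adjusted p = 0.0505). Wnt5a, the ligand tied to sympathetic axon growth, averaged −3.31 ± 0.28 in RA (-) spheres and −2.78 ± 0.26 in RA (+) spheres (SD, n = 4 each). Its change of −0.53 (SE 0.16) passed the test with an adjusted p of 0.0318 but was lower in 3 of 4 animals, and the call was lost without animal 1 (adjusted p = 0.0885), without animal 3 or 4, under normexp with quantile normalization (adjusted p = 0.0665), under spike-in scaling and with no filter on dim probes.

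Wnt1 and Wnt11 did not pass. Wnt1 averaged −0.16 ± 0.11 in RA (-) and −0.15 ± 0.08 in RA (+) spheres, by a probe that was above background on all arrays, while its second probe was not on any. Wnt11 had a change of −0.41 (SE 0.25, adjusted p = 0.197). Wnt2, Wnt2b, Wnt3a, Wnt4, Wnt7a, Wnt7b and Wnt10a were not above background on any array. With the background taken out by normexp and quantile normalization, which draws dim probes together, the changes were smaller: 1.03 for Wnt6, 0.43 for Wnt5b, −0.72 for Wnt9a and −0.21 for Wnt3, and each was still called.

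Of the 10 Frizzled receptors, 5 were tested, and 3 were called higher in RA (-) spheres and none lower. Fzd5 showed the widest gap, at −3.07, −2.95, −2.94 and −2.91 in RA (-) spheres and −4.31, −4.86, −4.16 and −4.20 in RA (+) spheres. The 4 RA (-) values lay close together and above all RA (+) values, of which 3 were above background. The change of 1.42 (SE 0.14, adjusted p = 0.000463) was 1.85 by a second probe, which was above background on the RA (-) arrays alone. Fzd3, a receptor known for guiding axons and for planar cell polarity, averaged 0.12 ± 0.10 in RA (-) spheres and −0.56 ± 0.07 in RA (+) spheres (SD, n = 4 each), a change of 0.68 (SE 0.07, adjusted p = 0.000603). Fzd1 had a change of 0.66 (SE 0.21, adjusted p = 0.0341), was above background on 4 RA (-) and 2 RA (+) arrays, and differed by 0.03 in animal 3. Its call was lost without animal 2 or 4, with no filter on dim probes, with the percentile of detected probes and under normexp with quantile normalization (0.15, adjusted p = 0.0744), where the change of Fzd5 was 0.36. Fzd4 (0.32, adjusted p = 0.0920) and Fzd9 (0.23, adjusted p = 0.413) did not pass, although Fzd4 did without animal 4 (0.45, adjusted p = 0.0379) and Fzd9 without animal 3 (0.52, adjusted p = 0.0154). The receptors Fzd2, Fzd6, Fzd7, Fzd8 and Fzd10 were not above background on any array.

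Of the other receptors, Ror1 and Ror2, tyrosine kinase receptors of Wnt5a, were both lower without retinoic acid. Ror2 (NM_013846) lay at −2.11, −1.84, −2.04 and −1.40 in RA (-) spheres, against −0.46, −0.29, −0.74 and −0.03 in RA (+) spheres. The groups did not overlap, with a 2.77-fold lower level (log2 change −1.47, SE 0.09, adjusted p = 0.000113). Ror1 was not above background on any RA (-) array, with values of −6.60, −6.25, −4.97 and −5.77, against −3.75, −4.02, −3.31 and −3.65 in RA (+) spheres, all 4 of which passed. That places it at least 1.52-fold lower. The adjusted p of 0.000299 belongs to the measured values (log2 change −2.21) and not to the bound. Ror1 also passed the filter through the RA (+) arrays alone. Normexp with quantile normalization gave −0.91 for Ror2 and −0.32 for Ror1. The beta-catenin coreceptor Lrp6 averaged 2.65 ± 0.17 in RA (-) spheres and 2.28 ± 0.13 in RA (+) spheres, a change of 0.37 (SE 0.08, adjusted p = 0.0101) that another probe gave as 0.34; the call was lost under spike-in scaling (0.51, adjusted p = 0.102) and without animal 4. Lrp5 had a change of 0.13 (SE 0.10, adjusted p = 0.309).

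R-spondins are secreted proteins that strengthen Wnt signalling: through Lgr4 and Lgr5 they remove Znrf3 and Rnf43, ligases that clear Frizzled from the cell surface. Rspo2 was higher in RA (-) spheres, at −1.17, −1.25, −0.45 and −0.64, against −2.50, −2.17, −2.49 and −2.63 in RA (+) spheres. No RA (-) value reached down to the RA (+) range, and the change was 1.57 (SE 0.21, adjusted p = 0.00129), or 0.84 under normexp with quantile normalization. The receptors went opposite ways. Lgr4 was above background on 1 of 4 RA (-) arrays, that of animal 1, with values of −3.51, −5.06, −4.62 and −4.86, against −1.86, −2.02, −1.88 and −2.14 in RA (+) spheres. Its change of −2.54 (SE 0.23, adjusted p = 0.000367) was −2.83 without animal 1 and −0.72 under normexp with quantile normalization, and has no exact size. Lgr4 passed the filter mainly through the RA (+) arrays, which favours a lower call. Lgr5, itself a target of beta-catenin in several tissues, lay at 1.45, 1.41, 1.65 and 1.35 in RA (-) spheres, against 0.81, 1.17, 0.85 and 0.62 in RA (+) spheres. It was higher in all 4 animals, by 0.60 (SE 0.11, adjusted p = 0.00511). Znrf3 overlapped between the media, with −2.22, −2.57, −3.13 and −2.56 in RA (-) spheres and −2.96, −2.99, −2.72 and −3.12 in RA (+) spheres, and did not pass (0.33, SE 0.19, adjusted p = 0.186), although it did without animal 3 (0.57, adjusted p = 0.00674). Rnf43 and Rspo3 were not above background on any array. Rspo1 was so on 2 RA (+) arrays and on no RA (-) array, and was not tested.

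Dkk proteins bind Lrp5 and Lrp6 and keep them from Wnt ligands, except that Dkk3 is a divergent member not known to act this way, and Sfrp proteins resemble the ligand-binding part of Frizzled and trap the ligands. All 3 tested genes listed as secreted inhibitors, Dkk3 among them, were called lower, beside 28.4% of all tested genes. Dkk1 and Sfrp5 passed the filter mainly through the RA (+) arrays, which favours a lower call. Dkk1 (NM_010051) lay at −3.26, −6.32, −6.06 and −5.82 in RA (-) spheres, against 0.01, −0.34, 0.07 and 0.08 in RA (+) spheres. It was above background on 1 RA (-) array, that of animal 1, whose value was far above the other 3 and still below every RA (+) value. The change was −5.32 (SE 0.50, adjusted p = 0.000425), −6.01 without animal 1 and −2.17 under normexp with quantile normalization, so its direction was measured and its size was not.

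Sfrp5 (NM_018780) was at −2.30, −2.94, −4.12 and −4.41 in RA (-) spheres, of which the first 2 were above background, against 1.80, 1.10, 1.27 and 1.09 in RA (+) spheres. The media were separated by more than the whole range within either, and the change was −4.76 (SE 0.30, adjusted p = 0.000126), or −3.03 under normexp with quantile normalization. Dkk3 (NM_015814) was above background on all 8 arrays, which gives its change a size. It lay at −2.89, −2.83, −3.09 and −2.67 in RA (-) spheres, against 0.25, 0.14, 0.43 and −0.15 in RA (+) spheres, and was 8.22-fold lower (log2 change −3.04, SE 0.16, adjusted p = 9.56e-05; −1.81 under normexp with quantile normalization). Of the other inhibitors, Sfrp1, Dkk2 and Wif1 were not above background on any array. Sfrp2 was above background on 1 RA (-) array and no RA (+) array, so it was not tested. It averaged −5.03 in RA (-) and −6.68 in RA (+) spheres.

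**Figure D3:**
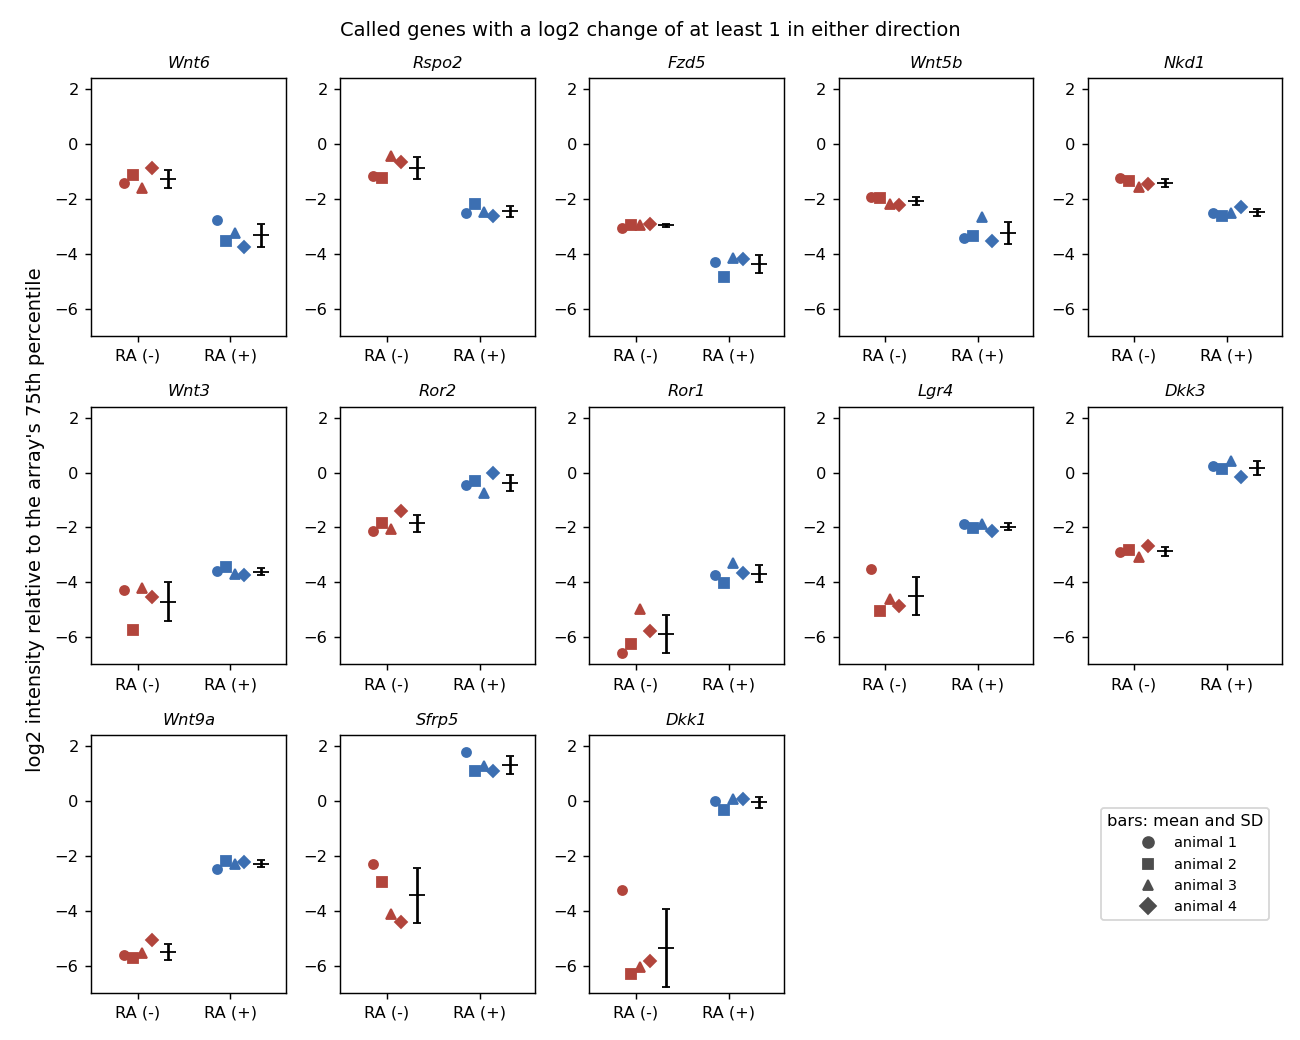
Level (log2 intensity relative to the array's 75th percentile) on each array for the 13 called genes with a log2 change of at least 1 in either direction, RA (-) in red and RA (+) in blue, with a symbol for each animal and bars for the mean and SD of 4 arrays. The groups are apart in every panel, and for Dkk1 and Lgr4 the RA (-) array of animal 1 lies above the other 3.

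The promoters of Dkk1 and Sfrp5, as inhibitors that were lower, and of Wnt6, as a ligand that was higher, are shown as the 250 bases before the gene's start in RefSeq (build GRCm38.p6), 5′ to 3′ on the gene's strand. Capitals mark the TCF and LEF core, searched as ATCAAAG or TTCAAAG on both strands; AGGTCA, a half-site bound by retinoic acid receptors, was also searched and is in none of the 3.
Dkk1, chr19:30549497-30549746, minus strand: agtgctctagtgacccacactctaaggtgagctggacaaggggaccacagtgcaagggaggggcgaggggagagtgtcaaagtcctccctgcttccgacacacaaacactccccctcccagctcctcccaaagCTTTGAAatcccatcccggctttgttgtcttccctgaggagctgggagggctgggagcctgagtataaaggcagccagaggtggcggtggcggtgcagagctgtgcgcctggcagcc
Sfrp5, chr19:42202253-42202502, minus strand: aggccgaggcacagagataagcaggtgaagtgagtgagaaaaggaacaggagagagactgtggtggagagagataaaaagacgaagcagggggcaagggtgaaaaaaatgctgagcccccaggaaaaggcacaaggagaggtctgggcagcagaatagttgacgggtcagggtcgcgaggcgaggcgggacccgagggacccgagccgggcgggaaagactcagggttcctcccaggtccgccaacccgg
Wnt6, chr1:74771642-74771891, plus strand: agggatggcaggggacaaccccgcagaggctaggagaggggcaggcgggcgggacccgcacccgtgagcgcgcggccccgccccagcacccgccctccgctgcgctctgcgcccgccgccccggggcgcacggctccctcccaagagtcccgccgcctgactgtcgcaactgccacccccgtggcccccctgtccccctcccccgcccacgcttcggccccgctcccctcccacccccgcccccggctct
The capitals in Dkk1 begin 117 bases before the start. Promoters were listed for 39 of the 56 members, 49 windows in all. A TCF and LEF core was in the windows of 3 members, Dkk1, Wnt5b and Wnt11, and in 7.48% of all 32851 windows; the half-site was in 1 window of Tcf7 and in 14.0% of all windows. A match describes the letters alone.

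The cytoplasmic components were above background on all 8 arrays, all 10 of them, and 5 did not pass the test. Nkd1 and Axin2, inhibitors that beta-catenin signalling itself switches on, were both higher in RA (-) spheres. Nkd1 lay at −1.22, −1.35, −1.57 and −1.47 in RA (-) spheres, against −2.52, −2.62, −2.51 and −2.30 in RA (+) spheres. It rose in every animal, by 1.09 (SE 0.11, adjusted p = 0.000480), or by 0.56 under normexp with quantile normalization. Axin2, the scaffold of the destruction complex that is widely read as a target of the pathway, had levels of −1.63, −1.73, −1.45 and −1.31 in RA (-) spheres and −2.31, −2.43, −2.33 and −2.12 in RA (+) spheres. The change was 1.70-fold (0.77 on the log2 scale, SE 0.07, adjusted p = 0.000461; 0.41 under normexp with quantile normalization), with no overlap. The second probe of Nkd1 was not above background on any array, and that of Axin2 was so on 2 RA (-) arrays and no RA (+) array, so neither change was checked by another probe.

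Ctnnb1, which encodes beta-catenin, lay at 3.26, 3.44, 3.30 and 3.08 in RA (-) spheres, against 3.01, 2.92, 2.87 and 2.89 in RA (+) spheres. These groups also stood apart, by 0.35 (SE 0.09, adjusted p = 0.0141), but the call was lost under normexp with quantile normalization (0.20, adjusted p = 0.0555), under spike-in scaling (0.50, adjusted p = 0.114), with quantile normalization alone, with the percentile of detected probes, and without animal 2. Dvl2, an adaptor that binds Frizzled, rose by 0.48 (SE 0.08, adjusted p = 0.00328), while its relatives Dvl1 (0.02) and Dvl3 (0.10) did not pass. Gsk3b, the kinase that marks beta-catenin, averaged 4.89 ± 0.42 in RA (-) spheres and 5.28 ± 0.21 in RA (+) spheres. It was lower in all 4 animals, most in animal 3, and the change of −0.39 (SE 0.13) had an adjusted p of 0.0438; its other probes gave −0.41 and −0.54. The change was −0.23 without animal 3 and −0.66 under normexp with quantile normalization, both called. That call was lost without animal 1 (adjusted p = 0.0569), 2 or 4, under spike-in scaling, without the filter on dim probes and without the block for the animal. Apc (−0.07), Axin1 (0.12) and Nkd2 (0.11) did not pass, although second probes of Apc and Nkd2 had changes of −0.30 (adjusted p = 0.0122) and 0.89 (adjusted p = 0.000864) over all tested probes.

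Of the TCF and LEF factors, which bring beta-catenin to DNA, Tcf7l2 was tested. It averaged −1.56 ± 0.08 in RA (-) spheres and −1.56 ± 0.16 in RA (+) spheres by its brightest probe, but a second probe had a change of 0.78 (SE 0.13, adjusted p = 0.00342), so its probes disagree. Lef1 and Tcf7l1 were above background on 1 RA (-) array each and on no RA (+) array. Tcf7 was so on 2 RA (-) arrays and 1 RA (+) array. With so few arrays above background, these 3 were not tested.

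**Figure D4:**
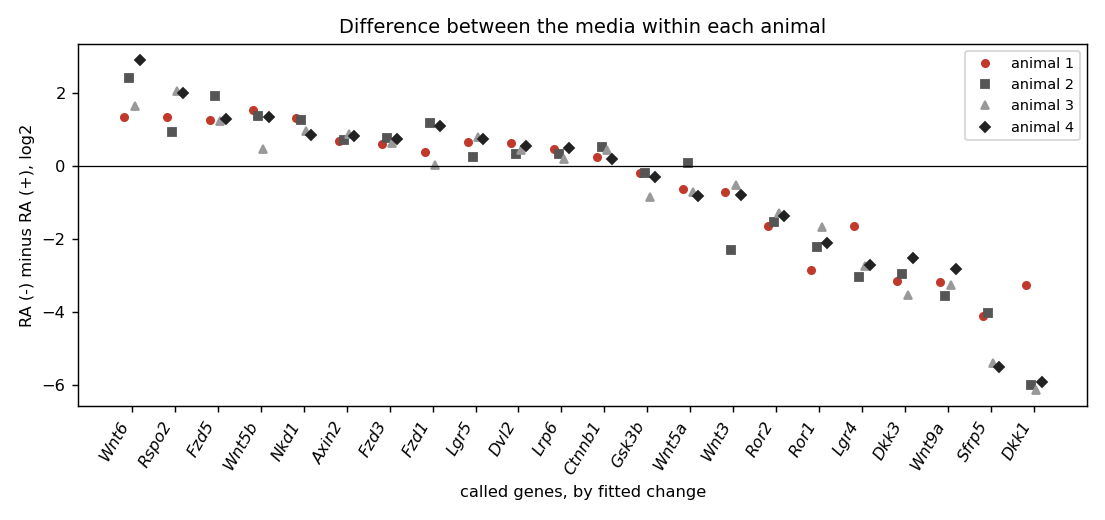
Difference between the media, RA (-) minus RA (+) on the log2 scale, within each of the 4 animals for the 22 called genes in the order of their fitted change. The animals agree in sign for 21 genes, with Wnt5a of animal 2 slightly above 0, and animal 1 (red) lies nearest to 0 for Dkk1 and Lgr4.

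Known feedback targets of beta-catenin did not all go one way. On a list of 11 such genes, 6 were tested: Nkd1, Axin2 and Lgr5 were called higher, Dkk1 was called lower, and Znrf3 and Notum (−0.17, adjusted p = 0.165) did not pass. The other 5, Lef1, Tcf7, Rnf43, Sp5 and Apcdd1, were too dim on most arrays to be tested. The 4 called genes are 66.7% of those tested, beside 64.3% of all tested genes, and all 4 are members already counted above. The median of the 6 was 0.47, beside 0.07 over all tested genes.

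A further 48 genes of the pathway outside the members were looked up in the same way, and 38 were tested. Called were 6 higher and 15 lower, which is 55.3% of them, beside 64.3% of all tested genes (35.9% higher and 28.4% lower). The median change was −0.18, beside 0.07 over all tested genes. Of 6 further secreted inhibitors, 3 were tested and all 3 were called lower, beside 28.4% of all tested genes. Sostdc1 and Draxin passed the filter mainly through the RA (+) arrays, which favours a lower call. Sfrp4 had a change of −1.25 (SE 0.12, adjusted p = 0.000409). Sostdc1, which binds Lrp6, was above background on 1 RA (-) array and all 4 RA (+) arrays by the probe tested, so the size of its change is not fixed: −3.08 (adjusted p = 5.37e-05), or −1.21 under normexp with quantile normalization. Draxin, named here after its values were seen, changed by −0.78 (adjusted p = 0.0295), but its media overlapped, it was lower in 3 of 4 animals, and its call was lost under normexp with quantile normalization (−0.12, adjusted p = 0.179). Frzb, Dkk4 and Sost were not above background on any array. Nfatc1, a transcription factor of calcium signalling, averaged −4.70 ± 1.62 in RA (-) spheres, with 1 of 4 arrays above background, and 0.48 ± 0.31 in RA (+) spheres. Its change of −5.18 was −5.99 without animal 1 and −2.58 under normexp with quantile normalization, and has no exact size. Nfatc1 also passed the filter mainly through the RA (+) arrays, which favours a lower call. Among the TLE proteins, corepressors that bind TCF factors, Tle1 was 2.51-fold higher and Tle3 2.50-fold lower in RA (-) spheres (log2 changes 1.33 and −1.32). The other probes of Tle1 gave 1.27 and 0.20, of which the second did not pass (adjusted p = 0.192). Tle2 (−0.27, adjusted p = 0.0386) and Tle4 (−0.68, adjusted p = 0.0126) were also called lower. Both calls were lost under spike-in scaling. Another probe of Tle2, above background on 1 RA (-) array, gave −3.59, and another of Tle4 gave −0.31 and did not pass (adjusted p = 0.180). Dact1, an inhibitor that binds Dvl, had a change of −1.55 (SE 0.12), Celsr1, a cadherin of planar polarity, rose by 1.51 (SE 0.17), and Btrc, the ligase that destroys marked beta-catenin, changed by −0.98 (SE 0.11), while its other probe gave −0.04 and did not pass.

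Markers of other cells were measured beside these genes. Each sum below is set mostly by its brightest probes. These were Mbp for glia (mean level 3.30 in RA (-) and 3.89 in RA (+) spheres), Itgam for immune cells (3.73 and 4.24) and Kdr for endothelium (3.10 and 3.12). For fibroblasts they were Thy1 (2.08 and 2.08), Col1a2 (1.90 and 0.87) and Postn (1.03 and 2.14). A sum therefore does not measure how much of a cell type was present. For the list of Schwann and satellite glia, the summed linear level of 10 markers was 12.7 to 16.1 times the 75th percentile on the RA (-) arrays, against 21.7 to 23.3 times on the RA (+) arrays. Of the 7 tested, 2 were called lower and none higher, which is 28.6%, beside 64.3% of all tested genes. These were Mbp, a myelin protein (−0.59, adjusted p = 0.00435), and Fabp7, a glial fatty acid carrier (−0.99, adjusted p = 0.000705). Sox10 (−0.12) did not pass the test, and Erbb3 was not above background on any array. For 7 immune markers the sum was 14.9 to 17.1 in RA (-) and 19.3 to 24.1 in RA (+) spheres. Of the 5 tested, 3 were called lower and none higher. Aif1 and Adgre1, markers of macrophages, were above background on all 4 RA (+) arrays and on no RA (-) array, which places them at least 1.49-fold and 1.44-fold lower, and Itgam changed by −0.51 (adjusted p = 0.00818). Ptprc and Cd14 were not above background on any array. For 10 fibroblast markers the sum was 9.53 to 13.8 in RA (-) and 9.99 to 13.5 in RA (+) spheres, which overlap, but single markers differed. Of the 7 tested, 4 were called lower and 1 higher, which is 71.4%, beside 64.3% of all tested genes. Fap was 3.35-fold, Postn 2.16-fold and Col3a1 1.67-fold lower, Dcn was above background on no RA (-) array and at least 1.64-fold lower, and Col1a2 was 2.04-fold higher. Lum and Pdgfra were not above background on any array. Aif1, Adgre1 and Dcn passed the filter through the RA (+) arrays alone, which favours a lower call. These glial, immune and fibroblast markers moved with the inhibitors and other members that were lower, and their part in those results was not tested. The endothelial sum was 8.93 to 10.1 and 8.69 to 10.9, and that of smooth muscle 1.10 to 1.31 and 1.02 to 1.71, in RA (-) and RA (+) spheres; Cdh5, Tek, Emcn and Myh11 were not above background on any array.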

How the data were processed

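Transcripts were measured in 8 samples of spheres, 4 in each medium, on 8 arrays of 1 slide and 1 scan. Spot intensities were read by the authors in Agilent Feature Extraction, version 11.5.1.1, and probes were annotated on mm9, per the file headers. The deposited processed intensity had local background and spatial trend removed array by array, with no scaling between arrays, per the file headers. Per the labels, labelling started from 40 or 200 ng of RNA whose integrity number was over 8; which array received which amount is not given in the sources used here. The deposited flags of outlier spots and of spots well above background, 0 or 1, were used as given. A deposited table by the authors holds log2 values centred on each probe's mean over the 8 arrays; each column correlated with the scanner values at 0.9999 or more, and the exact scaling behind it stays unknown. Its column medians were −0.07, 0.01, 0.17 and 0.20 for RA (-) arrays 1 to 4, and −0.23, −0.22, 0.02 and −0.01 for RA (+) arrays 1 to 4.

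Spots flagged as outliers were dropped, and 64 probes with them; no spot was saturated. On each array, log2 of the processed intensity had the array's 75th percentile subtracted, and spots of a probe were averaged. That percentile was 234 to 295 intensity units on RA (-) and 228 to 302 on RA (+) arrays, over a local background of 26 to 29. Between 48.5% and 55.0% of spots on RA (-) arrays and 52.7% and 55.3% on RA (+) arrays were well above background. Of 55681 probes, 27235 matched 1 symbol through their accession and a RefSeq table of GRCm38.p6, and 28446 matched none. Each gene is given by its brightest probe among those well above background on at least 4 arrays, which left 13539 genes. The fit used limma 3.58.1 in R 4.3.3, RA (-) minus RA (+), two-sided, with the animal as a block and Benjamini-Hochberg adjustment over all tested genes. It was tested on simulated data. The pairing comes from the series' description, and the deviations of same-numbered arrays correlated at 0.52, 0.30, 0.19 and 0.33. Alternatives were other scalings, background corrections, filters and probe rules, the fit without the block, and leaving out each animal. The files hold no mean spot signal, so normexp used the median signal, with an offset of 50, an alternative chosen after seeing the data. Values in every array are given for called members with a change of at least 1, members with only a bound, and Ctnnb1 and the detected feedback genes. Of the other pathway genes, up to 8 called ones with the largest change are named, and Draxin, Tle2 and Tle4 were added after their values were seen. Members and lists were chosen with earlier results of these data known. Single values of some marker genes are not reported here.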

Additional observations from a re-analysis of the deposited data

Results flagged for a closer look

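In groups of 4 arrays, a value was picked out when its gap to the nearest of the others exceeded Dixon's critical share of the group's range, which chance gives in about 1 of 20 groups. Of 68 groups (34 tested genes in 2 media), 4 held such a value. Dkk1 on RA (-) array 1 lay at −3.26, and the other RA (-) arrays at −6.32 to −5.82. Apc on RA (-) array 1 lay at −0.54, with the others at −0.95 to −0.89. Tcf7l2 on RA (-) array 3 lay at −1.44, with the others at −1.61 to −1.59. Tcf7l2 on RA (+) array 4 lay at −1.80, with the others at −1.51 to −1.47. A cause was not tested for any of them.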

How the results depend on the processing

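Over 13 alternatives, 16 of the 22 called members kept their direction and call wherever they were tested: Axin2, Dkk1, Dkk3, Dvl2, Fzd3, Fzd5, Lgr4, Lgr5, Nkd1, Ror1, Ror2, Rspo2, Sfrp5, Wnt5b, Wnt6 and Wnt9a. Ctnnb1, Fzd1, Gsk3b, Lrp6, Wnt3 and Wnt5a lost the call in at least 1. With no replicate block for the animal pairing, 12 members were called higher and 9 lower, Gsk3b being lost, and 8004 genes in all. Leaving out each animal in turn gave 10 to 14 members higher, 8 to 9 lower, a median of 0.06 to 0.13 and 7349 to 8217 genes called. With probes well above background on all arrays, 25 members were tested, 4 were called lower and the median was 0.23, since fewer genes were tested. The median was 0.0043 with the 75th percentile of detected probes, 0.26 under spike-in scaling and 0.21 with no filter on dim probes; spike-in scaling called 5413 genes. The median of all genes, 0.07, was −0.04 and 0.22 under those scalings, so that members moved with it. Some uncalled members gained a call: Nkd2 (0.50) and Tcf7l2 (0.39) with the mean over probes, Fzd9 and Znrf3 without animal 3, and Fzd4 without animal 4. Uncalled values near 0 also turned sign. Wnt1 was 0.057 under normexp with quantile normalization and 0.14 under spike-in scaling, and −0.049 to 0.039 with an animal left out. Dvl1 was −0.076, −0.085 and −0.088, and Dvl3 −0.094, −0.081 and −0.013, under normexp with quantile normalization, quantile normalization and the percentile of detected probes; with an animal left out they were −0.011 to 0.055 and −0.080 to 0.27. Apc was 0.079 under spike-in scaling, and −0.15 to 0.033 with an animal left out. Under the percentile of detected probes, Nkd2 was −0.0029 and Tcf7l2 −0.11. Tcf7l2 was −0.011 in the authors' table and −0.060 to 0.051 with an animal left out. The cause was not tested. A block for the slide was not run, as there is 1 slide. Arrays near background limit the size of the changes of Dkk1, Sfrp5, Lgr4, Wnt3, Wnt9a, Ror1, Sostdc1, Nfatc1 and Draxin. The same holds for Fzd5 and Fzd1, which were not above background on every RA (+) array.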
